A study of Arabidopsis thaliana with 8 samples.

Results

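Chromatin accessibility at 10 genes of nitrate transport, assimilation and response was followed by ATAC-seq in Arabidopsis thaliana as dry seeds became seedlings. In ATAC-seq, adapters are inserted by the Tn5 transposase wherever nucleosomes leave the DNA free, so that reads pile up in accessible chromatin regions (ACRs). The genes are the transporters NRT1.1 (AT1G12110), NRT1.8 (AT4G21680) and NRT2.7 (AT5G14570), the nitrate reductases NIA1 (AT1G77760) and NIA2 (AT1G37130), and the glutamine synthetase GLN1;5 (AT1G48470). The regulators are NLP8 (AT2G43500), LBD37 (AT5G67420), LBD38 (AT3G49940) and LBD39 (AT4G37540). An ACR was assigned to a gene when its summit, the base with the highest read pileup, lay from 1500 bp upstream of the start of the gene to 500 bp downstream of its end. This gave 22 ACRs among the 30223 of the series, with at least 1 at each of the 10 genes. An ACR is in the deposited tables only if its peak was called at a q value under 0.05 in both replicates of a stage, and the genes were chosen with earlier results of these data known, among them the rise of LBD39 in L6 against DS. That contrast is therefore given for LBD39 as a description with no test.

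All samples were of the Col-0 accession, the reference wild type. The stages were dry seed (DS), germinating seed after 6 h of light (L6) and after 26 h of light (L26), and seedling after 57 h of light (L57), with 2 libraries each. Seeds were stratified in water in the cold and dark and then shaken under continuous light in liquid Murashige and Skoog medium at reduced strength, whose standard recipe holds nitrate and ammonium salts. Light, imbibition and nitrogen supply therefore began between DS and L6 and cannot be told apart. Per the labels, embryos of germinating seeds were squeezed out and parted from the seed coats before nuclei were enriched, while the handling of dry seeds and seedlings is not described, so in comparisons with DS or L57 a different mix of tissues and altered chromatin cannot be told apart. Nothing in the labels ties the replicates to separate cultures, so differences between replicates may be only technical. The p-values set each change against a spread estimated mostly over all ACRs together, not from the libraries of that ACR alone.

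Nitrate is both a nutrient and a signal in plants, and in seeds it promotes germination. It is taken up by transporters of the NRT1 and NRT2 families, reduced to nitrite by nitrate reductase and then to ammonium by nitrite reductase, and built into glutamine by glutamine synthetase. NIN-like proteins (NLPs) are the transcription factors that activate genes in response to nitrate. LBD37, LBD38 and LBD39 are induced by nitrogen compounds and repress nitrogen-responsive genes.

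ACRs are named below by their gene and the distance in bp of the summit from the start of the gene, negative when upstream. The sequences that follow span 100 bp on each side of the summit of 6 of these ACRs, 1 each for a transporter, a reductase, the glutamine synthetase and NLP8 and 2 for LBD genes, chosen because they carry the largest changes in the text and lie outside annotated exons. They were read 5′ to 3′ on the strand of the gene from the RefSeq genome TAIR10.1, whose nuclear chromosomes have the lengths of TAIR10. Capitals mark matches to the motifs that are spelled out further on, and a sequence without capitals holds no match in this stretch.
NRT1.1 −201, chr1:4104922-4105122, forward strand: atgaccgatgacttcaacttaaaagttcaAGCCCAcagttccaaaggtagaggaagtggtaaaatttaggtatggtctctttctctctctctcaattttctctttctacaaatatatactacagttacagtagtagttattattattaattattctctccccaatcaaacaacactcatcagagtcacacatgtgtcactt
NIA1 −811, chr1:29240195-29240395, reverse strand: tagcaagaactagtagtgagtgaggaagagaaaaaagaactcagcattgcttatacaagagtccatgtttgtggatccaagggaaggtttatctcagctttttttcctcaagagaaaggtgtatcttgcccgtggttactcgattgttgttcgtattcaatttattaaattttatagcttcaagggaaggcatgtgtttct
GLN1;5 −238, chr1:17913373-17913573, forward strand: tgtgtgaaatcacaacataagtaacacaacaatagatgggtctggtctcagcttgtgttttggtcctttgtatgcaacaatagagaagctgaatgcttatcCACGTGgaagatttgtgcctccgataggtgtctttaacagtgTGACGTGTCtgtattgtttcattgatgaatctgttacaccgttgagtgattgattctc
NLP8 −1143, chr2:18060473-18060673, forward strand: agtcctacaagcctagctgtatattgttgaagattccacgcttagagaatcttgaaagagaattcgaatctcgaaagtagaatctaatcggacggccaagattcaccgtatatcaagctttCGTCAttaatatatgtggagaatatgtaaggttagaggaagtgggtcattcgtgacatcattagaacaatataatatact
LBD38 −1027, chr3:18513139-18513339, forward strand: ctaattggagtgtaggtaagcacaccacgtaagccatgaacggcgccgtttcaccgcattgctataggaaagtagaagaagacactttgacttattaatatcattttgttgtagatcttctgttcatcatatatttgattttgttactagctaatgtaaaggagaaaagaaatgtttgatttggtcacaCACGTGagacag
LBD39 −182, chr4:17641007-17641207, reverse strand: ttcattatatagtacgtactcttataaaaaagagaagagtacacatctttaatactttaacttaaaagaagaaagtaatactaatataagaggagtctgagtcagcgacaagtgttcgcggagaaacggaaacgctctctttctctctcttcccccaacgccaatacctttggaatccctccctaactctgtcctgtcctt

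GLN1;5 −238 had a G-box (CACGTG, bound by bZIP and bHLH factors) that began 1 base after the summit, and its second run of capitals joins the TGA core TGACG and an abscisic acid response element (ABRE), which overlap. The capitals of LBD38 −1027 are a G-box, those of NLP8 −1143 a TGA core on the opposite strand, and those of NRT1.1 −201 a Site II element on the opposite strand. The stretches of NIA1 −811 and LBD39 −182 held no match. Outside the printed stretch of LBD39 −182, a TGA core lay at −331 bp and a G-box at −352 bp from the start of LBD39.

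Of the 22 ACRs, 10 lay upstream of the gene, 10 within it and 2 downstream of its end. A summit within the promoter, from 400 bp upstream to 100 bp downstream of the start, was found at 8 genes, and the exceptions were NRT2.7 and LBD38. ACR widths were 236 to 1602 bp with a median of 695 bp, against a median of 522 bp over all ACRs. The 22 ACRs held 5 to 879 reads per library with a median of 125, while the median over all ACRs was 39 to 83 in the 8 libraries. A change is called more easily at an ACR with more reads, and the shares of all ACRs given below are not matched for read number. The farthest upstream summit inside the window was NLP8 −1143, with stage means of 183.4, 214.3, 86.0 and 62.6 CPM (ATAC-seq counts scaled to library size) at DS, L6, L26 and L57. The nearest one outside it lay at −1882 bp from NRT1.1, with means of 10.4, 20.2, 21.7 and 30.0 CPM. On the other side, the last summit inside was 202 bp past the end of NLP8, with 94.5, 81.2, 59.7 and 75.5 CPM, and the first one outside was 690 bp past the end of GLN1;5, with 12.5, 8.24, 16.2 and 24.1 CPM.

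**Figure D1:**
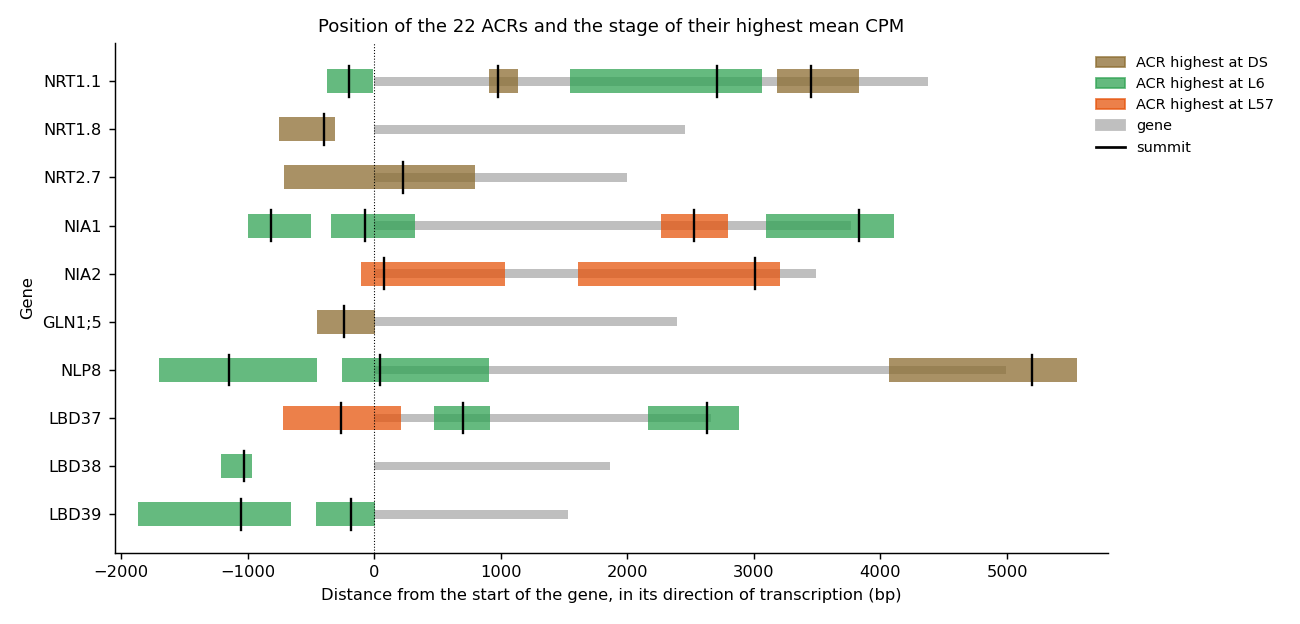
Position of the 22 ACRs on the 10 genes. The horizontal axis gives the distance from the start of the gene in bp, gray bars are genes, colored bars are ACRs, black ticks are summits, and the color gives the stage with the highest mean CPM. Of the 22 ACRs, 6 were highest at DS, 12 at L6, 0 at L26 and 4 at L57.

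Accessibility was highest at DS at 6 of the 22 ACRs, at L6 at 12, at L26 at 0 and at L57 at 4, while 29.1%, 24.7%, 20.7% and 25.5% of all ACRs were highest at DS, L6, L26 and L57. Conversely, 12 of the 22 were lowest at DS, 0 at L6, 6 at L26 and 4 at L57, while 27.8%, 23.3%, 22.0% and 27.0% of all ACRs were lowest at DS, L6, L26 and L57. The ACRs that were highest at L6 belong to NRT1.1, NIA1, NLP8, LBD37, LBD38 and LBD39, and those that were highest at DS include the lead ACRs of NRT1.8, NRT2.7 and GLN1;5. The lead ACR of a gene is the one with the highest mean CPM among its promoter ACRs or, without any, among all its ACRs. These counts describe means of 2 libraries with no test.

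The 8 libraries held 1534759 to 3734831 reads in ACRs, with the most at DS and the fewest at L57. Log2 CPM correlated at r = 0.914 to 0.960 between replicates and at 0.748 to 0.865 in the 24 pairs of libraries from unlike stages, across ACRs, which are not independent replicates. The summed accessibility of marker genes of tissues or developmental stages differed between the stages. Over the ACRs of 6 of 6 dry seed marker genes, summed CPM was 1100 to 1160 at DS, 438 to 472 at L6, 345 to 366 at L26 and 382 to 394 at L57. Over 6 of 6 photosynthesis genes it was 283 to 288, 351 to 358, 393 to 410 and 473 to 478 CPM. Over 7 of 9 seed coat markers it was 140 to 146, 168 to 174, 218 to 226 and 160 to 190 CPM, with no ACR at BAN and MYB61. Over 4 of 8 endosperm markers it was 145 to 160, 101 to 103, 108 to 127 and 123 to 146 CPM, with no ACR at FWA, AGL62, PHE1 and ZOU. The seed coat sum was highest at L26, although embryos of germinating seeds had been parted from the seed coats. That sum therefore cannot be read as seed coat content. The part of these shifts in the results at the nitrate genes was not tested. In bulk nuclei, fewer nuclei with an open region and less accessibility per nucleus cannot be told apart.

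**Figure D2:**
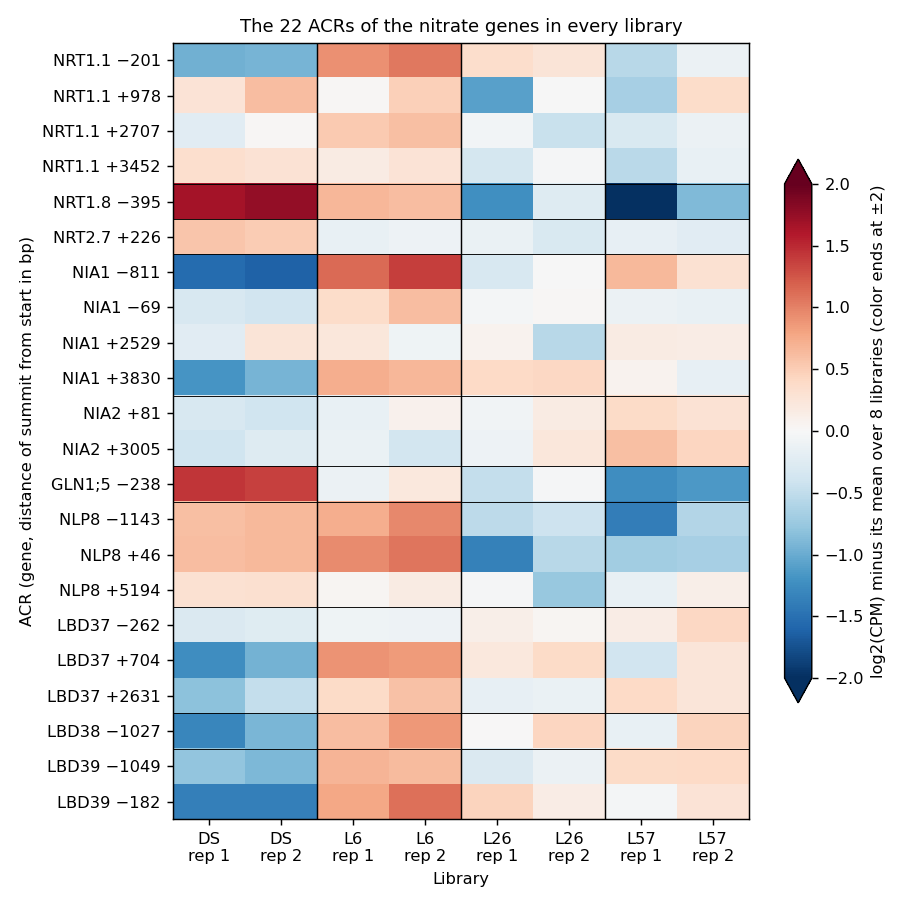
Accessibility of the 22 ACRs in the 8 libraries. Each row is an ACR, each column a library, and the color is log2 CPM minus the mean of that ACR over the 8 libraries, from blue (lower) to red (higher). The DS columns are blue and the L6 columns red for the upstream ACRs of NRT1.1, NIA1, LBD38 and LBD39, whereas NRT1.8 and GLN1;5 are red at DS and blue at L57.

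The first comparison asks how these loci differ between seeds that had 6 h of light and dry seeds. In L6 against DS, 9 of the 20 ACRs outside LBD39 were higher and 3 were lower, the latter at 3 genes. Calls were made at a Benjamini-Hochberg adjusted p under 0.05 over all ACRs in the quasi-likelihood F test of edgeR. Over all ACRs, 17.6% were called higher and 14.3% lower in this comparison. With the 2 ACRs of LBD39, whose rise was known beforehand, the counts were 11 higher, at 6 genes, and 3 lower of 22. Of the called ACRs, 8 were at least 2-fold higher (a log2 fold change of at least 1), both LBD39 ACRs among them, and 2 at least 2-fold lower, while 5.82% and 2.24% of all ACRs were called and at least 2-fold higher and lower. The median log2 fold change was 0.355 over the 22 ACRs, LBD39 included, against −0.0112 over all ACRs. No ACR of the 22 called in any of the 6 pairs of stages had overlapping libraries in that pair. The same share was not computed over all called ACRs, so this describes the 22 alone.

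Among the transporters, NRT1.1, a dual-affinity nitrate transporter that also acts as a nitrate sensor, had its lead ACR just upstream of the start (chromosome 1, 4104854 to 4105213). NRT1.1 −201 held 8.17 and 8.36 CPM in the DS libraries, 30.0 and 33.1 in L6, 20.2 and 19.1 in L26, and 10.8 and 14.6 in L57. Both DS libraries were lowest and both L6 libraries highest, with L26 between L6 and L57. The log2 fold change in L6 against DS was 1.93 ± 0.26 (SE, adjusted p = 2.95e-10), a 3.81-fold rise. The fall in L26 against L6, of −0.69 ± 0.24 (adjusted p = 0.0357), passed in 7 of 18 other settings (other scalings, tools and filters, and each library left out in turn), with adjusted p of up to 0.306. The differences of L57 from its neighbors in the order of levels, L26 (adjusted p = 0.208) and DS (adjusted p = 0.185), did not pass, although the libraries did not overlap.

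Within NRT1.1, the wide intronic ACR +2707 (chromosome 1, 4106771 to 4108288) held 94.1 and 112.1 CPM in the DS libraries, 158.0 and 166.0 in L6, 105.2 and 80.9 in L26, and 88.8 and 101.3 in L57. Its L6 libraries stood above all others. It rose by 0.65 ± 0.11 on the log2 scale in L6 against DS (adjusted p = 2.71e-07) and changed by −0.81 ± 0.12 in L26 against L6 (adjusted p = 3.26e-08). With offsets corrected for GC content the rise was 0.19 with an adjusted p of 0.191. The coding-exon ACRs +978 and +3452 of NRT1.1 passed in none of L6 against DS, L26 against L6 and L57 against L26. NRT1.1 +3452 was lower in L57 than in DS, by −0.62 ± 0.24 (adjusted p = 0.0387), a call that held in 8 of 18 other settings.

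NRT1.8, which takes nitrate back out of the xylem sap, had a single ACR (chromosome 4, 11520117 to 11520559), whose summit is also in the promoter window of the long non-coding RNA gene AT4G07025. NRT1.8 −395 held 46.1 and 49.0 CPM in the DS libraries, 23.1 and 22.3 in L6, 6.19 and 12.2 in L26, and 2.90 and 7.92 in L57. Its mean was lower at each later stage, and only the L26 and L57 libraries overlapped. The log2 fold change was −1.07 ± 0.20 in L6 against DS (adjusted p = 7.59e-06), −1.25 ± 0.31 in L26 against L6 (adjusted p = 0.00167) and −3.08 ± 0.32 in L57 against DS (adjusted p = 6.33e-16). L57 and L26 did not differ beyond their spread (−0.76 ± 0.48, adjusted p = 0.304), at 5 to 32 reads per library. The fall in L26 against L6 was −0.88 with an adjusted p of 0.0922 without L26 replicate 1, and −1.85 without L26 replicate 2. That in L57 against DS was −2.56 without L57 replicate 1 and −4.00 without L57 replicate 2, whose removal leaves L57 with a library of 5 reads here, and it passed in all 18 other settings.

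NRT2.7, which loads nitrate into seed vacuoles, had a single ACR 1503 bp wide with its summit in a coding exon (chromosome 5, 4696284 to 4697786), and this ACR reaches upstream over the start of the gene. NRT2.7 +226 held 95.1 and 92.7 CPM in the DS libraries, 58.4 and 60.2 in L6, 59.3 and 52.7 in L26, and 58.2 and 55.8 in L57. DS stood apart, and L26 overlapped with both L6 and L57. In L6 against DS the log2 fold change was −0.66 ± 0.14 (adjusted p = 3.19e-05) and in L57 against DS −0.72 ± 0.16 (adjusted p = 0.00013). The neighbors L6, L57 and L26 did not pass against each other, with adjusted p of 0.828 for L57 against L6 and 0.943 for L57 against L26.

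**Figure D3:**
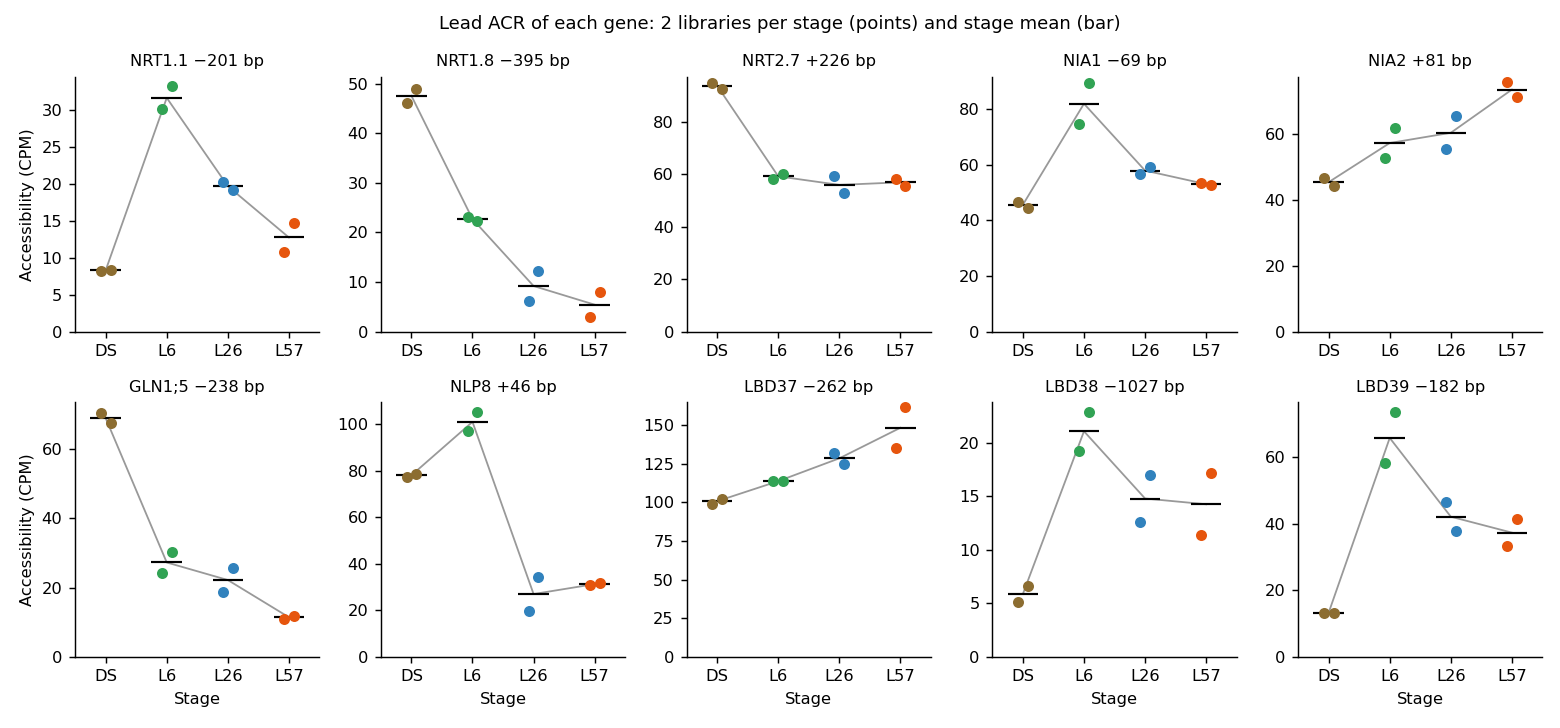
Accessibility of the lead ACR of each of the 10 genes. The vertical axis is CPM from 0, points are the 2 libraries of a stage, black bars are stage means and gray lines join them. NRT1.1, NIA1, NLP8, LBD38 and LBD39 had their highest mean at L6, NRT1.8, NRT2.7 and GLN1;5 at DS, and NIA2 and LBD37 at L57.

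Both Arabidopsis nitrate reductases reduce nitrate to nitrite in the cytosol, and their ACRs were not called alike. At NIA1, 3 of 4 ACRs were higher in L6 than in DS, and at NIA2 0 of 2 were, also by the DESeq2 Wald test, while 1 of the 2, NIA2 +81, was higher at an unadjusted p under 0.05. The upstream ACR NIA1 −811 (chromosome 1, 29239980 to 29240479) held 8.73 and 8.25 CPM in the DS libraries, 55.7 and 66.3 in L6, 20.2 and 25.2 in L26, and 39.6 and 31.3 in L57. No 2 stages overlapped, and L6 was highest. Its log2 fold change of 2.84 ± 0.23 in L6 against DS (adjusted p = 1.17e-23), a 7.16-fold rise, was the largest of the 22 ACRs. It fell by 1.41 in L26 against L6 (SE 0.21, adjusted p = 1.65e-08), and L57 was 2.04 ± 0.29 above DS (adjusted p = 6.79e-10). In the order L6, L57, L26, DS the step between the neighbors L57 and L26 missed the threshold (0.62 ± 0.25, adjusted p = 0.0881), and it passed with GC-corrected offsets (0.81, adjusted p = 0.0205).

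The lead ACR of NIA1, −69 (chromosome 1, 29239158 to 29239825), held 46.8 and 44.5 CPM in the DS libraries, 74.7 and 89.3 in L6, 56.8 and 59.1 in L26, and 53.4 and 52.6 in L57. L6 was again highest and DS lowest, with a narrower range than at −811. The log2 fold change was 0.85 ± 0.15 in L6 against DS (adjusted p = 7.30e-07) and −0.50 ± 0.15 in L26 against L6 (adjusted p = 0.0128). This fall lost its call without L6 replicate 2 (adjusted p = 0.178), L26 replicate 1 (0.0857) or L26 replicate 2 (0.078). Neither L57 against L26 (adjusted p = 0.696) nor L57 against DS (adjusted p = 0.407) passed.

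At the other end of NIA1, the ACR +3830, 67 bp past the end of the gene (chromosome 1, 29235377 to 29236388), held 23.2 and 27.6 CPM in the DS libraries, 86.5 and 83.0 in L6, 69.0 and 69.5 in L26, and 55.0 and 46.9 in L57. The 4 stages did not overlap. It was higher in L6 than in DS by 1.74 ± 0.16 on the log2 scale (adjusted p = 7.71e-19) and higher in L57 than in DS by 0.99 ± 0.21 (adjusted p = 3.65e-05). Its steps in L26 against L6 and L57 against L26 did not pass, at −0.29 ± 0.15 and −0.45 ± 0.19 (adjusted p = 0.182 and 0.0849). Both passed as lower with TMM factors (adjusted p = 0.0393 and 0.0191) and DESeq2 size factors (0.0284 and 0.0253), and the second also with total counts (0.0437). NIA1 +2529, in a coding exon, stayed between 13.4 and 23.3 CPM in the 8 libraries and passed in no comparison.

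NIA2 +81, in the 5′ UTR (chromosome 1, 14158351 to 14159489), held 46.6 and 44.0 CPM in the DS libraries, 52.6 and 61.8 in L6, 55.4 and 65.3 in L26, and 75.6 and 71.2 in L57. Only the L57 libraries were above all others and only the DS libraries below all others. L57 was higher than DS by 0.69 ± 0.17 (adjusted p = 0.000693), while L6 against DS gave 0.34 ± 0.16 (adjusted p = 0.0859), L26 against L6 0.08 ± 0.16 (adjusted p = 0.794) and L57 against L26 0.27 ± 0.18 (adjusted p = 0.312). The step in L6 against DS passed with TMM factors (trimmed mean of M values), DESeq2 size factors, total counts and GC-corrected offsets, with adjusted p of 0.0139, 0.0101, 0.0321 and 0.000765. The second ACR of NIA2, +3005 in a coding exon, was higher in L57 than in DS by 0.84 ± 0.15 (adjusted p = 2.16e-06) and than in L6 by 0.75 ± 0.15 (adjusted p = 2.89e-05). The difference between the NIA genes was not itself tested.

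GLN1;5, a cytosolic glutamine synthetase, had 1 ACR, directly upstream of the gene (chromosome 1, 17913258 to 17913721). GLN1;5 −238 held 70.5 and 67.4 CPM in the DS libraries, 24.2 and 30.3 in L6, 18.8 and 25.6 in L26, and 11.01 and 11.8 in L57. DS was far above the rest and L57 below it, whereas L6 and L26 overlapped. It changed by −1.33 ± 0.18 on the log2 scale in L6 against DS (adjusted p = 1.36e-10) and −2.58 ± 0.25 in L57 against DS (adjusted p = 1.05e-17). L26 and L6 did not differ beyond their spread (−0.28 ± 0.24, adjusted p = 0.477). The fall in L57 against L26 (−0.97 ± 0.33, adjusted p = 0.0341) was lost without L26 replicate 2 (adjusted p = 0.275), L57 replicate 1 (0.178) or L57 replicate 2 (0.154).

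NLP8 is the NIN-like protein known as the master regulator of germination in response to nitrate, and 2 of its 3 ACRs were more than 2-fold lower in L26 than in L6. NLP8 +46, over the start of the gene with its summit in the 5′ UTR (chromosome 2, 18061464 to 18062623), held 77.5 and 78.7 CPM in the DS libraries, 97.0 and 105.2 in L6, 19.7 and 34.3 in L26, and 30.9 and 31.6 in L57. L26 and L57 overlapped and were both far below the earlier stages. The log2 fold change was −1.88 ± 0.17 in L26 against L6 (adjusted p = 3.90e-18), a fall to 0.273 of the L6 level, and −1.32 ± 0.19 in L57 against DS (adjusted p = 3.58e-09). The small rise in L6 against DS (0.37 ± 0.13, adjusted p = 0.0208) was lost without DS replicate 1 (adjusted p = 0.147), DS replicate 2 (0.111) or L6 replicate 2 (0.135) and with GC-corrected offsets (0.860). L57 and L26 did not differ beyond their spread (0.18 ± 0.25, adjusted p = 0.668).

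The upstream ACR NLP8 −1143 (chromosome 2, 18060016 to 18061265) held 180.5 and 186.3 CPM in the DS libraries, 197.3 and 231.3 in L6, 82.7 and 89.3 in L26, and 45.7 and 79.5 in L57. It too dropped after L6. Its log2 fold change was −1.31 ± 0.12 in L26 against L6 (adjusted p = 1.37e-19) and −1.51 ± 0.14 in L57 against DS (adjusted p = 1.35e-19). L6 against DS gave 0.23 ± 0.10 (adjusted p = 0.0623) and L57 against L26 −0.42 ± 0.16 (adjusted p = 0.0640). Of 18 other settings, 9 called the first of these and 6 the second. NLP8 +5194 is 202 bp past the end of the gene and its summit is at −50 bp from the start of AT2G43510, so that its values may belong to either gene. It was lower in L26 than in L6 by −0.47 ± 0.15 (adjusted p = 0.0203), with an adjusted p of 0.799 without L26 replicate 2.

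LBD37 had 3 ACRs that did not move alike. LBD37 −262, in an exon of the long non-coding RNA gene AT5G09915 (chromosome 5, 26906308 to 26907241), held 99.3 and 102.3 CPM in the DS libraries, 114.0 and 113.6 in L6, 132.2 and 124.9 in L26, and 135.1 and 161.7 in L57. The stages did not overlap, and each later stage was higher. L57 was higher than DS by 0.57 ± 0.12 (adjusted p = 9.30e-05), a call that TMM factors (adjusted p = 0.556), DESeq2 size factors (0.476), total counts (0.208) and the DESeq2 Wald test (0.633) did not make. No step between successive stages passed, but L6 against DS did with TMM factors (0.33, adjusted p = 0.0261) and DESeq2 size factors (0.35, adjusted p = 0.0178).

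In the 5′ UTR of the same gene, LBD37 +704 (chromosome 5, 26905611 to 26906051) held 15.2 and 18.7 CPM in the DS libraries, 67.6 and 65.1 in L6, 41.7 and 47.1 in L26, and 27.8 and 42.5 in L57. It was highest at L6 and lowest at DS. Its log2 fold change was 1.96 ± 0.19 in L6 against DS (adjusted p = 1.38e-17), −0.57 ± 0.18 in L26 against L6 (adjusted p = 0.0125) and 1.07 ± 0.25 in L57 against DS (adjusted p = 0.000217). Without L26 replicate 1 the fall had an adjusted p of 0.117 and without L6 replicate 1 of 0.0629, and without L57 replicate 2 the L57 against DS rise had an adjusted p of 0.134. LBD37 +2631, in the 3′ UTR (chromosome 5, 26903638 to 26904359), held 46.3 and 58.5 CPM in the DS libraries, 106.4 and 122.4 in L6, 72.8 and 74.4 in L26, and 107.5 and 96.2 in L57. L26 dipped between L6 and L57. It rose by 1.13 ± 0.13 in L6 against DS (adjusted p = 2.07e-13) and fell by 0.64 in L26 against L6 (SE 0.14, adjusted p = 0.000152). Its rise in L57 against L26 (0.46 ± 0.16, adjusted p = 0.0331) held in 7 of 18 other settings and in none of the 6 fits that left out 1 library of L6, L26 or L57.

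LBD38 had a single narrow ACR far upstream (chromosome 3, 18513060 to 18513298). LBD38 −1027 held 5.11 and 6.65 CPM in the DS libraries, 19.3 and 22.9 in L6, 12.6 and 17.0 in L26, and 11.4 and 17.2 in L57. DS was lowest, and only L26 and L57 overlapped. The log2 fold change was 1.84 ± 0.30 in L6 against DS (adjusted p = 1.61e-07) and 1.29 ± 0.36 in L57 against DS (adjusted p = 0.00302), with an adjusted p of 0.190 for the second without L57 replicate 2. L26 against L6 (adjusted p = 0.232) and L57 against L26 (adjusted p = 0.932) did not pass.

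LBD39 had 2 upstream ACRs, and the values of both in L6 against DS are a description. LBD39 −182 (chromosome 4, 17640919 to 17641386) held 13.2 and 13.2 CPM in the DS libraries, 58.1 and 73.4 in L6, 46.4 and 37.8 in L26, and 33.3 and 41.3 in L57. LBD39 −1049 (chromosome 4, 17641579 to 17642793), at −1136 bp from the start of AT4G37550, held 51.0 and 47.4 CPM in the DS libraries, 141.0 and 137.7 in L6, 72.3 and 81.6 in L26, and 115.5 and 116.6 in L57. The order after L6 differed, as L26 was the lower of the later stages at −1049 and did not separate from L57 at −182. The log2 fold changes in L6 against DS were 2.31 at −182 and 1.50 at −1049.

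In L26 against L6, whose L6 libraries also entered the contrast for which LBD39 was chosen, LBD39 −1049 had a log2 fold change of −0.85 ± 0.13 (adjusted p = 4.23e-08). LBD39 −182 had −0.66 ± 0.18 (adjusted p = 0.00395), lost without L6 replicate 2 (adjusted p = 0.120) or L26 replicate 2 (0.159). LBD39 −1049 rose again in L57 against L26 by 0.59 ± 0.15 (adjusted p = 0.00288), a call that TMM factors (adjusted p = 0.108), DESeq2 size factors (0.0862) and the DESeq2 Wald test (0.175) did not make. L57 was above DS at both ACRs, by 1.50 ± 0.26 at −182 (adjusted p = 3.91e-07) and by 1.24 ± 0.15 at −1049 (adjusted p = 6.78e-13). Its DS libraries are those of the contrast that chose the gene. The adjusted p-values of LBD39 in L26 against L6 and L57 against DS are therefore not independent of that choice.

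**Figure D4:**
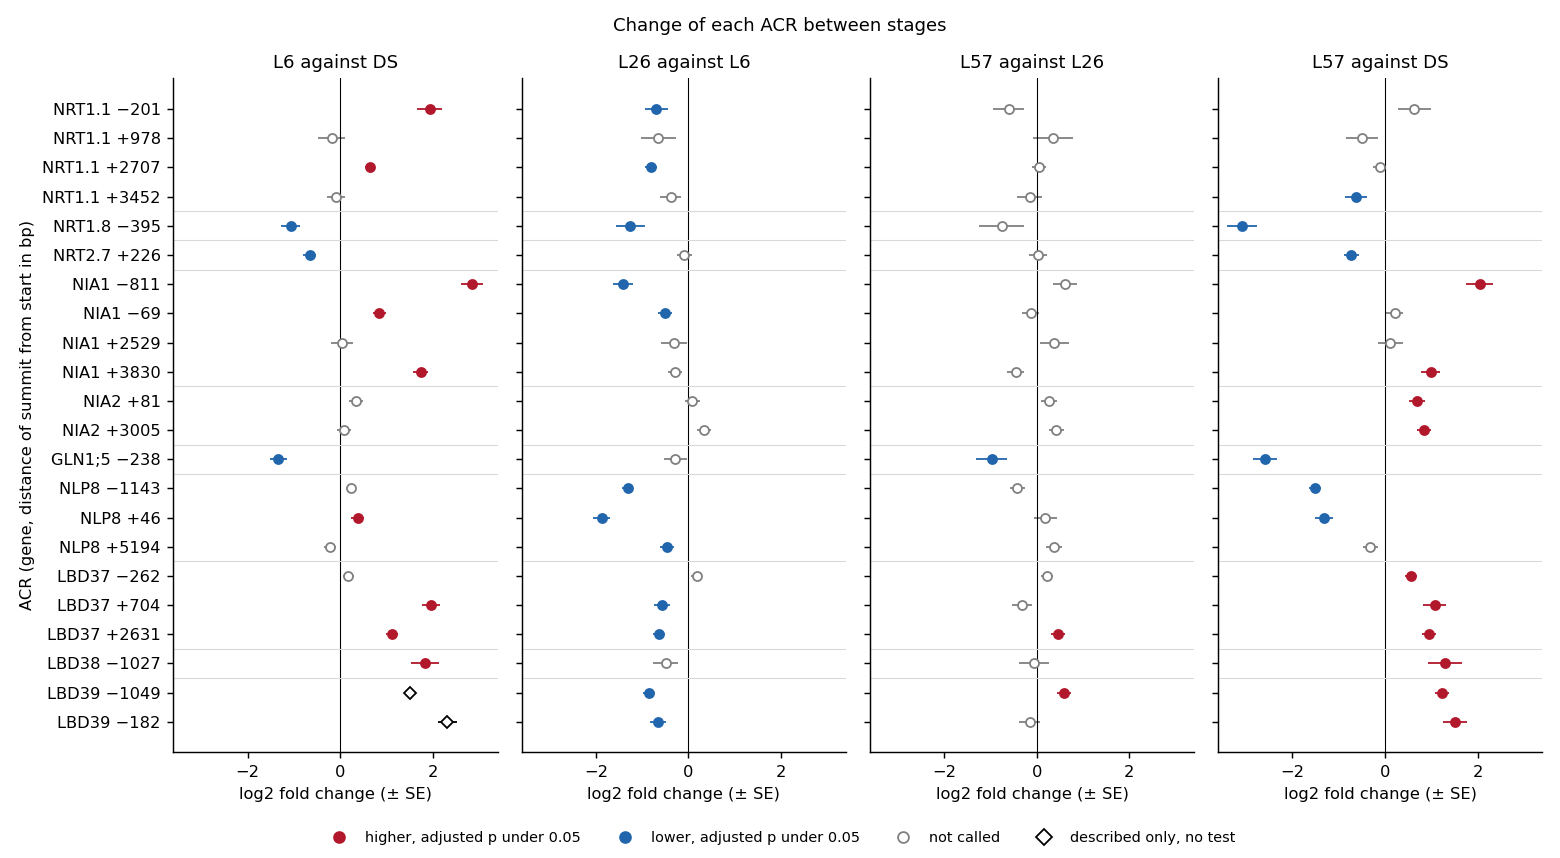
Log2 fold changes of the 22 ACRs in 4 comparisons. The horizontal axis is the log2 fold change, bars are ± 1 SE, red and blue points passed at an adjusted p under 0.05 as higher and lower, open circles did not, and open diamonds are the LBD39 values that are described only. In L26 against L6 the called points are all below 0, with NLP8 +46 at −1.88 the lowest.

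The second comparison asks what happened between 6 h and 26 h of light. In L26 against L6, 0 of the 22 ACRs were higher and 12 were lower, at 6 genes, while 8.71% of all ACRs were higher and 7.91% lower. At an unadjusted p under 0.05, 1 of the 22 was higher and 12 were lower, and the DESeq2 Wald test gave 0 higher and 10 lower. Without LBD39, 0 were higher and 10 lower of 20. The median log2 fold change was −0.536, against −0.0101 over all ACRs. Of the 12, 4 were at least 2-fold lower, NRT1.8 −395, NIA1 −811, NLP8 −1143 and NLP8 +46, while 2.03% of all ACRs were called and at least 2-fold lower and 2.90% at least 2-fold higher. Leaving out 1 library at a time gave 8 to 12 lower.

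The third comparison is that of seedlings after 57 h with germinating seeds after 26 h of light. In L57 against L26, 2 of the 22 ACRs were higher, LBD37 +2631 and LBD39 −1049, and 1 was lower, GLN1;5 −238, while 7.53% of all ACRs were higher and 6.19% lower. Without LBD39 the counts were 1 and 1 of 20. The median log2 fold change was 0.0382, against −0.0182 over all ACRs. None of the 3 was 2-fold, while 2.76% of all ACRs were called and at least 2-fold higher and 2.62% lower. The counts shifted with the scaling: with TMM factors or DESeq2 size factors 0 were higher and 3 lower.

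Over the whole course, in L57 against DS, 10 of the 22 ACRs were higher, at 5 genes, and 6 were lower, at 5 genes. Over all ACRs 17.0% were higher and 12.2% lower. Without LBD39 the counts were 8 and 6 of 20, and the median log2 fold change over the 22 was 0.392, against −0.00887 over all ACRs. Of the called ACRs, 5 were at least 2-fold higher and 4 at least 2-fold lower, against 7.63% and 5.08% of all ACRs. The 10 belong to NIA1, NIA2, LBD37, LBD38 and LBD39, and the 6 to NRT1.1, NRT1.8, NRT2.7, GLN1;5 and NLP8. For the order of the stages, 11 ACRs were higher and 7 lower in L26 against DS, where 20.2% of all ACRs were higher and 15.6% lower. In L57 against L6, 2 were higher, NIA2 +3005 and LBD37 −262, and 11 were lower, where 16.0% of all ACRs were higher and 15.8% lower. The order of L57 and L6 at LBD37 −262 depended on the scaling. With TMM factors its log2 fold change against DS was 0.33 at L6 and 0.12 at L57, and with DESeq2 size factors 0.35 and 0.14. The comparisons share libraries of a stage and are not independent of each other.

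Windows of 250 bp on either side of each summit were searched for motifs on both strands, and a match describes letters only. The full nitrate-responsive element, the site bound by NLPs, was in 0 of the 22 windows and in 2 windows of all ACRs (0.00662%). A pattern this rare cannot tell whether sites of NLPs are lacking here. Its first part (TGACCCTT or TGACTCTT) occurred at 1 of the 22, LBD38 −1027, with 2 copies on the opposite strand that began −846 and −817 bp from the start of LBD38, against 3.86% of all ACRs. The GAATATTC site of NIGT1 repressors was in 0 of the 22 windows and in 1.19% of all. The TGA core TGACG, part of the sites of factors such as TGA1 and TGA4, was in 13 of 22 windows, or 59.1%, against 40.9% of all. The G-box CACGTG was in 6 windows, or 27.3%, against 14.2% of all, and the ABRE (ACGTGGC or ACGTGTC), whose letters can overlap with both, was in 2, or 9.09%, against 13.3%. GCGGCG, bound by LOB domain proteins, the family of the LBD genes, was in 3 windows, or 13.6%, against 8.02%, among them LBD37 +704 and LBD39 −1049. The Telo-box AAACCCTA was in 2, or 9.09%, against 8.05%, and Site II (TGGGCC or TGGGCT) in 3, or 13.6%, against 34.9%.

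The 4 lead ACRs with the widest range of stage means were compared with 3901 promoter ACRs that averaged at least 10 CPM and whose protein-coding gene had a symbol, by Pearson's r of log2(CPM + 1) over the 8 libraries. The r values describe 4 stages with 2 libraries each, which share their depth. Nearest to NRT1.8 −395 were AO1 (r = 0.981), PP2-B10 (0.978) and VIP2 (0.974), and nearest to GLN1;5 −238 were UGT74E2 (0.993), NF-YC10 (0.982) and NodGS (0.981). Nearest to LBD39 −182 were EXL3 (0.988), ROPGEF14 (0.978) and HB5 (0.976), and nearest to NLP8 +46 were IGMT2 (0.975), TPR1 (0.974) and EDL2 (0.962).

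The wider nitrogen pathway was read from 5 lists of 84 genes, of which 81 had an ACR in the same window, each represented by 1 ACR chosen by the rule for lead ACRs. The genes NRT1.4, NRT3.2 and HRS1 had none. Apart from the 10 genes above, 71 genes were measured. Of those named below, only TGA1, CIPK23, CYP707A2, NLP9, BT1 and ASN1 are represented by a promoter ACR. In L6 against DS, 20 of these 71 were higher and 15 lower, with a median log2 fold change of 0.0228. In L26 against L6, 4 were higher and 18 lower (median −0.112), in L57 against L26 10 were higher and 4 lower (0.117), and in L57 against DS 15 were higher and 12 lower (0.0525). Over all ACRs, 17.6% were higher and 14.3% lower in L6 against DS, and 8.71% and 7.91% in L26 against L6. The shares were 7.53% and 6.19% in L57 against L26, and 17.0% and 12.2% in L57 against DS. No list was tested as a set. Those shares are not matched for the read number of the lead ACRs.

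Among the 26 other genes of nitrate signaling, 10 were higher and 4 lower in L6 against DS, and 1 was higher and 11 lower in L26 against L6. The shares of all ACRs were 17.6% and 14.3% in the first comparison and 8.71% and 7.91% in the second. NLP1, another NIN-like protein, averaged 162.9 ± 3.27 CPM at L6 and 40.5 ± 2.68 at DS (SD, n = 2 libraries each), a log2 fold change of 2.01 ± 0.13 (adjusted p = 1.18e-32), and fell by 0.98 in L26 against L6 (adjusted p = 1.39e-10). The bZIP factor gene TGA4 changed by 0.82 and −1.01 in the same comparisons (adjusted p = 4.82e-13 and 1.55e-14), and TGA1 by 0.44 and −1.02 (adjusted p = 0.00192 and 1.27e-09). CIPK23, a kinase that phosphorylates NRT1.1, changed by 1.58 and −1.20 (adjusted p = 3.71e-06 and 0.00246). Those lower in L6 against DS were NLP7 (−0.95, adjusted p = 1.19e-05), NLP2 (−1.13, 0.00222), NLP6 (−0.71, 0.00235) and BT1 (−1.03, 0.00344). CYP707A2, an abscisic acid hydroxylase known as a target of NLP8, averaged 51.3, 67.4, 28.3 and 20.6 CPM at DS, L6, L26 and L57, and changed by −1.26 ± 0.19 in L26 against L6 (adjusted p = 4.73e-08). In L57 against DS, 4 of the 26 were higher and 7 lower, where 17.0% of all ACRs were higher and 12.2% lower. NLP7 and NLP9 were lower, by −1.47 and −1.65 (adjusted p = 3.78e-08 and 7.84e-14), and HHO3, of the NIGT1 repressor family, was higher by 0.62 (adjusted p = 1.13e-08).

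In L6 against DS, 17.6% of all ACRs were higher and 14.3% lower. Among 17 other genes of nitrate transport, 3 were higher and 5 lower in this comparison. The higher ones were NRT1.2, a low-affinity nitrate transporter (1.54 ± 0.12, adjusted p = 1.64e-25), NRT1.12 (1.48 ± 0.22, 1.38e-08) and the vacuolar nitrate exchanger CLC-A (1.46 ± 0.26, 2.18e-06). NRT1.7, which loads nitrate into the phloem, had the smallest p of those that were lower (−0.93 ± 0.10, adjusted p = 7.28e-16). All 6 ammonium transporter genes on the list had an ACR, and 0 of them were higher and 3 lower in L6 against DS, AMT1;2, AMT1;3 and AMT1;4 (−0.43, −0.41 and −0.47, adjusted p = 0.0171, 0.0320 and 0.0242). AMT1;2 was then higher in L57 than in L26 by 0.89 (adjusted p = 3.03e-05).

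Over all ACRs, 17.6% were higher and 14.3% lower in L6 against DS. Of the 8 other genes of nitrate and nitrite reduction, 2 were higher and 2 lower in this comparison. UPM1, an enzyme of the siroheme cofactor of nitrite reductase, rose by 1.02 ± 0.12 (adjusted p = 3.90e-13). RFNR1 and RFNR2, root-type ferredoxin-NADP reductases, changed by 0.47 and −0.40 (adjusted p = 0.00335 and 0.00206), and G6PD3, a glucose-6-phosphate dehydrogenase, by −0.48 (adjusted p = 0.00539). The ACR of nitrite reductase itself, NIR1, passed in no comparison, with 0.27 ± 0.23 in L6 against DS (adjusted p = 0.379). That ACR has its summit 2051 bp downstream of the start and is not a promoter ACR. Of the 14 other genes of glutamine, glutamate and asparagine, 5 were higher and 1 lower in L6 against DS. GLU1, ferredoxin-dependent glutamate synthase, rose by 1.51 ± 0.18 (adjusted p = 4.10e-13) and GDH2, a glutamate dehydrogenase, by 0.98 (adjusted p = 5.91e-10), and ASN1, an asparagine synthetase, was the lower one (−0.76 ± 0.12, adjusted p = 1.62e-08). GLN1;2, another cytosolic glutamine synthetase, is represented by an ACR with its summit 2715 bp downstream of the start, and not by a promoter ACR as GLN1;5 is. It was higher in L57 than in DS, by 2.17 ± 0.15 (adjusted p = 1.32e-28), and its stage means were 33.9, 39.3, 89.7 and 151.3 CPM at DS, L6, L26 and L57.

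**Figure D5:**
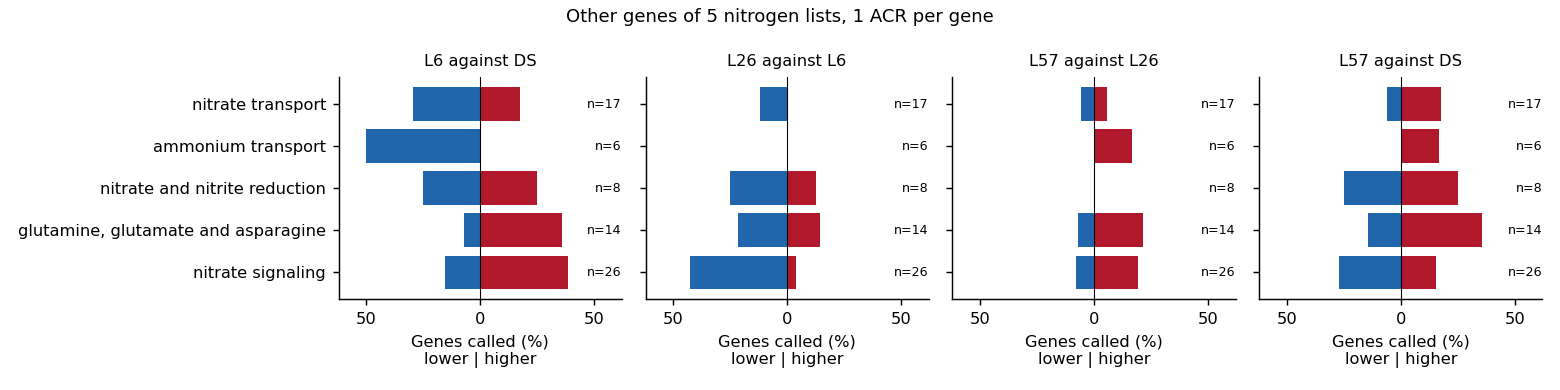
Share of genes of 5 nitrogen lists that were called higher (red, to the right) or lower (blue, to the left) in 4 comparisons, without the 10 genes of the report, with n the number of genes with an ACR. Of the 26 nitrate signaling genes, 10 were higher in L6 against DS and 11 lower in L26 against L6. Over all ACRs, which are not drawn, 17.6% were higher in the first comparison and 7.91% lower in the second.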

How the data were processed

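ATAC-seq libraries of 4 stages, 2 each, were analysed from the tables the authors deposited. The deposited count table gives reads per ACR, and the deposited CPM table gives CPM, counts that the authors scaled to library size with csaw offsets that depend on abundance. Per the methods and the submitters' processing notes, reads were trimmed (fastp 0.23.4), mapped to TAIR10 (Bowtie2 2.4.4), filtered, deduplicated (Genrich 0.6.1) and called with MACS3 3.0.0b3. Those steps leave each ACR a merged interval, so a narrow peak within a wide ACR is not resolved. Totals were 1534759 to 3734831 counts. Offsets were recomputed by loess (span 0.3) and differed from the deposited ones by at most 1.9e-12, apart from 2 ACRs with a zero count.

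All ACRs entered 1 quasi-likelihood model (edgeR 4.0.16, R 4.3.3) with no filter or block and with Benjamini-Hochberg adjustment over 30223 ACRs. The model was also run on simulated counts with 1 spread for all ACRs and no bias by abundance. That run is simpler than the data and cannot vouch for the calls. The SE is the absolute log2 fold change divided by the square root of F. Residual degrees of freedom were 4 per ACR, against a median of 190.8 prior degrees of freedom shared across ACRs (biological coefficient of variation 9.73%). The spread meant in each test is therefore mostly that pooled over all ACRs. Genes, lists, motifs and markers were chosen with earlier results of these data known. Values in every library were given for lead ACRs and for ACRs called with an absolute log2 fold change of at least 1, and others were named after their values were seen (NRT1.1 +2707, NLP8 +5194, NIA2 +3005). From each list up to 4 genes per comparison were named by smallest p among those that passed. NIR1 and the L6 against DS values of TGA1, NLP2, NLP6 and BT1 were added after their values were seen. So was the L26 against L6 value of CIPK23. CYP707A2, NLP7 and NLP9 belong to the signaling list. Of 84 list names, 78 matched RefSeq symbols and the others were matched by gene ID. DESeq2 1.42.0 served as an alternative. Reads and coverage tracks were not used here.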

Additional observations from a re-analysis of the deposited data

How the results depend on the processing

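Alternatives were TMM factors, DESeq2 size factors, total counts, GC-corrected offsets, the DESeq2 Wald test, the earlier form of the edgeR test, a count filter (which kept all 30223 ACRs), the 2 stages alone, a replicate block, each library left out in turn, and all libraries thinned to 1534759 counts, the last chosen after seeing the data. Over 88 fold changes and 18 settings (1584 fits), 0 called fold changes reversed. These cover L6 against DS, L26 against L6, L57 against L26 and L57 against DS, and not L26 against DS or L57 against L6. In 64 fits a call was lost and in 41 one was gained. The counts of L6 against DS and L57 against DS stayed within 1.5 times. All counts of called ACRs among the 22 in this section include LBD39. In L57 against L26 the higher count was 2, with 0 by TMM factors, DESeq2 size factors and the DESeq2 Wald test and 1 by total counts and the 2 stages alone. It was 3 by GC-corrected offsets, the earlier form of the edgeR test and the thinned libraries. The lower count there was 1, with 3 by TMM factors, DESeq2 size factors and total counts, 2 by the 2 stages alone and 0 by GC-corrected offsets and the DESeq2 Wald test. Leaving out a library gave 1 to 2 higher and 0 to 1 lower in L57 against L26, and 0 to 1 higher in L26 against L6. The cause was not tested. Replicate numbers did not pair the libraries (correlations of replicate differences −0.0405 to 0.0231), and the replicate block left the counts at 11 and 3, 0 and 12, 2 and 1, and 10 and 6 higher and lower in L6 against DS, L26 against L6, L57 against L26 and L57 against DS. Over all ACRs, the share of calls that were higher was 55.1% in L6 against DS, but 44.7% with total counts and 71.1% with the DESeq2 Wald test. It was 52.4% in L26 against L6, but 62.6% and 38.6%, and 54.9% in L57 against L26, but 41.5% with the DESeq2 Wald test. Total counts put 63.2% of the calls of L57 against L6 higher, instead of 50.4%, and moved the median of all ACRs there to 0.186. Windows from 1000 bp upstream to the end of the gene gave 17 ACRs at 9 genes, and from 3000 bp upstream to 1000 bp downstream 30 at 10. With motifs sought within 150 bp, matches fell to 0 of 22 for the first part of the nitrate-responsive element, 1 for GCGGCG and 0 for the Telo-box, since the windows are shorter. The lowest count of a member ACR in a library was 5, at NRT1.8 −395 in L57.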
